A study of Mus musculus with 2 samples.

Results

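The genes of cholesterol and fatty acid synthesis were followed here across the cell types of the neonatal mouse lung. A list of 29 genes, 20 of the sterol arm and 9 of the fatty acid arm, was looked up by symbol in the single-cell RNA sequencing (scRNA-seq) counts. The counts covered 27998 genes, and 0 of the 29 genes were missing from either library. Lungs of C57BL/6 pups, labelled as 2 weeks old, came from mice kept from birth to postnatal day 14 in room air (21% oxygen) or in hyperoxia (80% oxygen), a model of bronchopulmonary dysplasia. Tissue of 8 mice was pooled into 1 library for each group, so neither group had a replicate and the mice of a library cannot be told apart. The room air library held 39593888 unique molecular identifiers (UMIs, each standing for 1 captured transcript molecule) in 4234 barcodes, and the hyperoxia library 111934936 UMIs in 13223 barcodes. The 29 genes together took 0.110% of the UMIs in room air and 0.125% in hyperoxia. Of the 17 barcodes that occurred in both libraries, 13 were among the cells kept.

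Cells build cholesterol from acetyl-CoA through mevalonate, farnesyl diphosphate, squalene and lanosterol, and they build long-chain fatty acids from the same acetyl-CoA. The enzymes of both arms are targets of the sterol regulatory element-binding proteins, which are encoded by *Srebf2* for the sterol arm and mainly by *Srebf1* for the fatty acid arm. When sterols are plentiful, the INSIG proteins hold these factors in the endoplasmic reticulum in an inactive form. In the lung, type 2 alveolar epithelial cells (AT2 cells) make surfactant, a film rich in saturated phospholipid and cholesterol, and alveolar macrophages take up and clear the used film.

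The promoters show what the genes share in sequence. RefSeq promoter windows, from 250 bases before to 50 bases after a start site on GRCm38.p6, were matched by symbol for 23 of the 29 genes. No window was given for *Sqle*, *Fdps*, *Fdft1*, *Stard4*, *Scd1* and *Scd2*. Both strands were searched for TCACNCCAC, the core of a classical sterol regulatory element, for CCAAT, the box bound by NF-Y, and for GGGCGG, a box bound by SP1-type factors. CCAAT was present in 20 of the 23 genes and in 41.1% of 27025 genes with a window of the same length. GGGCGG was present in 18 of the 23 genes and in 38.2% of these 27025. TCACNCCAC was present in 1 of the 23 genes, *Hmgcs1*, at positions -137 to -129 from the start, and in 1.44% of all genes with a window. A match is a string of letters, and no binding was measured here. Windows of 4 sterol genes that differed in the capillary cells described below and of 2 fatty acid genes with high counts in AT2 cells are printed 5′ to 3′ on the strand of the gene, with matches to these motifs on either strand (ATTGG and CCGCCC on the opposite strand) in capitals. The windows lie at chr13:119690101-119690400 on the plus strand, chr13:8885356-8885655 on the plus strand, chr5:4104648-4104947 on the minus strand, chr5:28071162-28071461 on the plus strand, chr11:120824498-120824797 on the minus strand and chr4:118427843-118428142 on the plus strand. In *Fasn* a pair of CCAAT matches on opposite strands overlap, and in *Elovl1* a GGGCGG match overlaps a CCAAT match.
Hmgcs1: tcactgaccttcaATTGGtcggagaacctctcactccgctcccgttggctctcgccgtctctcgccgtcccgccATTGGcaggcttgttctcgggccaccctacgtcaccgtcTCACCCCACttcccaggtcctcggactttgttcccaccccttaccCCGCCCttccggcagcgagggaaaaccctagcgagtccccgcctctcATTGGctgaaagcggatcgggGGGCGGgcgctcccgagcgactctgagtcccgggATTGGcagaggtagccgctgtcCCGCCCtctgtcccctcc
Idi1: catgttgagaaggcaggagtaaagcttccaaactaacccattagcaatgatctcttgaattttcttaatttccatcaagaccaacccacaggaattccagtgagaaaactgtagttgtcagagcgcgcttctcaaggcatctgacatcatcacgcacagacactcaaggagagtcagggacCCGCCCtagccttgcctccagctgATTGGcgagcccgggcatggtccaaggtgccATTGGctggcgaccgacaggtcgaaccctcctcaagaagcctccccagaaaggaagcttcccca
Cyp51: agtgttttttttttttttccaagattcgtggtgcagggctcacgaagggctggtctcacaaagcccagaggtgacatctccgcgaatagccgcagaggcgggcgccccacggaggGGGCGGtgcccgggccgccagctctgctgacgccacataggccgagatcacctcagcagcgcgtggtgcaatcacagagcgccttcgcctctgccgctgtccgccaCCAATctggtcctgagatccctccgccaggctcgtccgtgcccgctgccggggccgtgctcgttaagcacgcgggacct
Insig1: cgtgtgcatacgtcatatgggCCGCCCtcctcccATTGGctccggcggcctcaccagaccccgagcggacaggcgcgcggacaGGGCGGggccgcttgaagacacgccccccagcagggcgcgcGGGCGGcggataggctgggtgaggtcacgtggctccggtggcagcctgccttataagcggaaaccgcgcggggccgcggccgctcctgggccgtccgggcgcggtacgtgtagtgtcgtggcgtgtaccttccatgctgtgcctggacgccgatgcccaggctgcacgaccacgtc
Fasn: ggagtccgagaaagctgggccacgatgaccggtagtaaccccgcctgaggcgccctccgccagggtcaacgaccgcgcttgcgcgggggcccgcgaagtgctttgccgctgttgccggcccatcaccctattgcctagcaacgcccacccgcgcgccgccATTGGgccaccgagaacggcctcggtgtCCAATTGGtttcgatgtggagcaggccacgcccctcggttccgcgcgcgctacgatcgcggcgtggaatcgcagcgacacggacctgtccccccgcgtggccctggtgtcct
Elovl1: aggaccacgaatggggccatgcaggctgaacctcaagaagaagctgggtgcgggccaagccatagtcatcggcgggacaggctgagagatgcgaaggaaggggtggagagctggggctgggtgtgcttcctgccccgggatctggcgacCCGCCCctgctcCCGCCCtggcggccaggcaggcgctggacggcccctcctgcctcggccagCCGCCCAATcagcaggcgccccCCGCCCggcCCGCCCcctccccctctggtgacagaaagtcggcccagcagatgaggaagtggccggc

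The cells were clustered without the 29 genes, and 16 cell types with at least 50 cells in each library were compared. Names rest on marker genes and are written as AT2-like and so on. All 8 AT2 markers were raised in both AT2-like clusters, of which the smaller had a median of 1435 UMIs per cell, and *Sftpc*, encoding surfactant protein C, stood at 198954 CPM in room air against 173226 CPM in hyperoxia. CPM here are counts per 1000000 UMIs, from the counts of a gene summed over the cells of a type. All 8 markers were likewise raised in the single alveolar macrophage-like cluster, relative to the other clusters and over both libraries together. Between the libraries these markers differed in both directions. *Chil3* (9552 CPM in room air against 4278 CPM in hyperoxia), *Ear1* (753 and 139 CPM), *Ear2*, *Krt79* and *Siglecf* were lower in hyperoxia. *Marco* (492 and 1222 CPM), *Plet1* and *Atp6v0d2* were higher. UMIs are counted at transcript 3′ ends and capture differs between genes, so levels below are compared between cell types or libraries for the same gene. Intervals are exact 95% intervals for counting error, which leave out the differences between mice and between libraries.

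In both libraries the fatty acid arm was read most strongly in AT2-like cells, where the 9 genes together reached 4111 CPM in room air against 2859 CPM in hyperoxia. AT1-like cells, the flat gas-exchange epithelium, came next with 1934 and 2436 CPM. Single genes weighed heavily in these sums, *Scd1* in AT2-like cells (2307 and 1467 CPM) and *Scd2* in AT1-like cells (1539 and 2010 CPM). For 6 of the 9 genes AT2-like cells had the highest level of the 16 types in either library. These were *Srebf1*, *Fasn*, *Acaca*, *Scd1*, *Acly* and *Elovl1*. *Scd1*, encoding a stearoyl-CoA desaturase that puts the first double bond into saturated acyl chains, stood at 2307 CPM (2249 to 2365) in room air against 1467 CPM (1446 to 1489) in hyperoxia. The next type for *Scd1* was B-like cells, with 297 CPM (275 to 320) and 350 CPM (333 to 368), and the median over the 16 types was 6.95 and 10.2 CPM. *Fasn*, encoding fatty acid synthase, was at 459 CPM (433 to 485) and 393 CPM (382 to 404) in AT2-like cells. The next type was myofibroblast-like cells in room air, at 35.6 CPM, and alveolar fibroblast-like cells in hyperoxia, at 53.2 CPM. *Srebf1* was at 91.5 and 80.0 CPM in AT2-like cells, above the 25.2 and 34.4 CPM of pericyte-like cells, which came next in both libraries.

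The other 3 fatty acid genes had their highest level elsewhere. *Scd2*, the second desaturase, was highest in AT1-like cells, with 1539 CPM (1421 to 1664) in room air against 2010 CPM (1917 to 2106) in hyperoxia. AT2-like cells came next, with 539 and 397 CPM, so that the desaturase genes were split between the alveolar epithelial types. *Elovl5*, an elongase of polyunsaturated chains, stood at 178 and 210 CPM in general capillary endothelial (gCap)-like cells. In room air its interval there overlapped that of ILC2-like cells, at 177 CPM. *Elovl6*, which lengthens palmitate to stearate, had its highest level in myofibroblast-like cells in room air, at 28.0 CPM, and in T-like cells in hyperoxia, at 31.2 CPM. In AT2-like cells *Elovl6* had 2 UMIs in room air and 16 in hyperoxia, and in AT1-like cells it had 0 in both, which allows up to 7.32 and 3.43 CPM (3 counts).

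The sterol arm had 2 leading types, AT2-like cells with 770 CPM (737 to 804) for the 20 genes together in room air against 738 CPM (723 to 753) in hyperoxia, and alveolar macrophage-like cells with 827 CPM (788 to 868) and 790 CPM (766 to 814). In hyperoxia gCap-like cells came next, and their interval (689 to 726 CPM) overlapped that of AT2-like cells. AT2-like cells had the highest level of 6 of the 20 genes in room air and alveolar macrophage-like cells of another 6. In hyperoxia these counts were 6 and 7. *Hmgcs1*, encoding the synthase that makes HMG-CoA, was at 135 and 146 CPM in AT2-like cells and at 136 and 131 CPM in alveolar macrophage-like cells, and the intervals of these types overlapped in either library. Of the late steps, *Cyp51* and *Msmo1* stood higher in alveolar macrophage-like cells. *Cyp51*, encoding lanosterol demethylase, was at 67.0 and 61.2 CPM there against 36.3 and 34.4 CPM in AT2-like cells. *Msmo1*, encoding the methylsterol oxidase, was at 57.0 and 70.6 CPM there against 31.8 and 37.9 CPM. Both genes had intervals that did not overlap those of the next type in either library.

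Some sterol genes were read most in types that the arm as a whole did not favour. *Stard4*, encoding a carrier of sterol between membranes, was highest in gCap-like cells, with 158 CPM (147 to 169) in room air against 203 CPM (193 to 213) in hyperoxia, followed by aerocyte (aCap)-like cells with 48.7 and 65.4 CPM. *Sc5d*, a sterol desaturase, was highest in neutrophil-like cells, with 84.0 and 76.3 CPM, and in room air its interval overlapped that of alveolar fibroblast-like cells, at 58.2 CPM. *Ebp*, the sterol isomerase, was highest in ILC2-like cells, a cluster that also carried T cell genes, with 102 and 79.4 CPM, although its interval overlapped that of the next type in each library. *Srebf2*, encoding the factor of the sterol arm, was highest in dendritic-like cells, with 68.6 and 80.3 CPM, and in room air its interval overlapped that of AT2-like cells, at 62.0 CPM. For 22 of the 29 genes the same type was highest in both libraries.

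**Figure D1:**
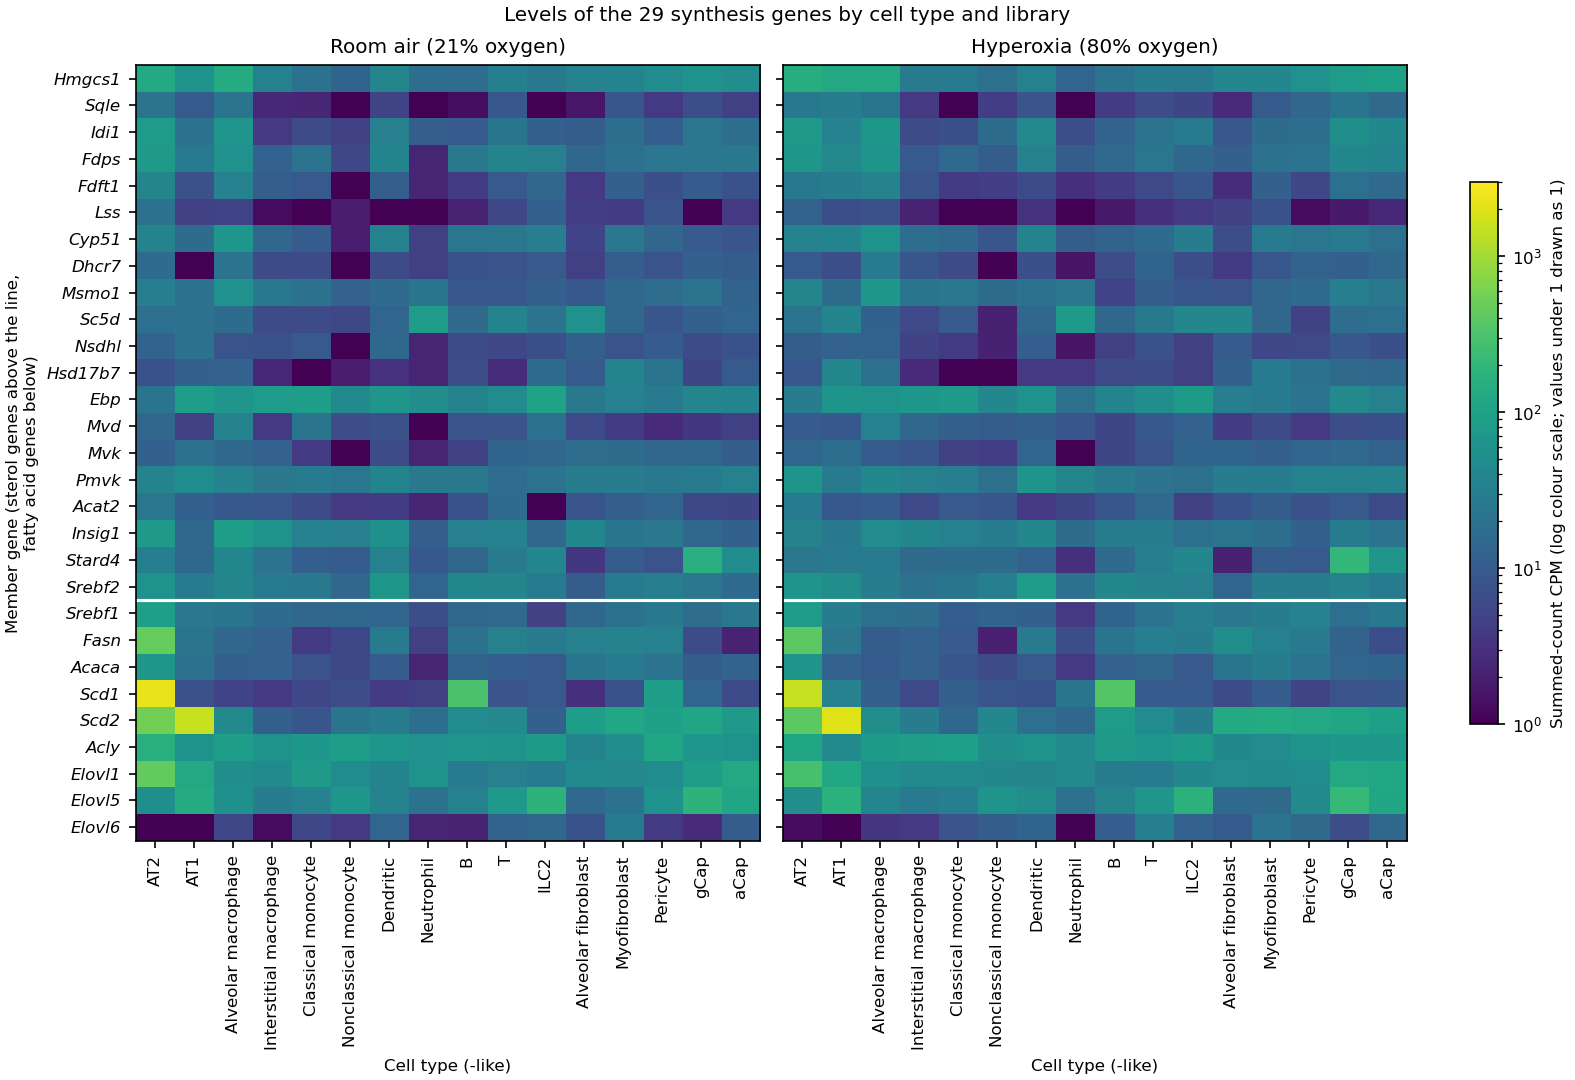
Level of each of the 29 genes (rows) in the 16 cell types (columns) in room air and in hyperoxia, as summed-count CPM on a log colour scale. The brightest fields are *Scd1* in AT2-like cells (2307 and 1467 CPM) and *Scd2* in AT1-like cells (1539 and 2010 CPM), and *Stard4* stands out in gCap-like cells (158 and 203 CPM).

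Free RNA was gauged from 4 surfactant transcripts used here as markers of AT2 cells (*Sftpc*, *Sftpb*, *Sftpa1* and *Sftpd*). In the other 15 types they stood at 0.0776 to 0.904% of their AT2-like level, except in room air pericyte-like cells (2.16 to 2.89%) and hyperoxia AT1-like cells (2.39 to 4.46%). In room air 3 of the 150 pericyte-like cells held 7369 of the 7736 surfactant UMIs, so the share there rests on these cells. *Scd1* in B-like cells stood at 12.9% of its AT2-like level in room air and 23.9% in hyperoxia, above the highest surfactant share there of 0.210 and 0.902%. *Scd2* in AT1-like cells stood at 285 and 506% of the AT2-like level. *Scd1* in alveolar macrophage-like cells stood at 0.217 and 0.832%, beside surfactant shares of up to 0.167 and 0.236%.

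**Figure D2:**
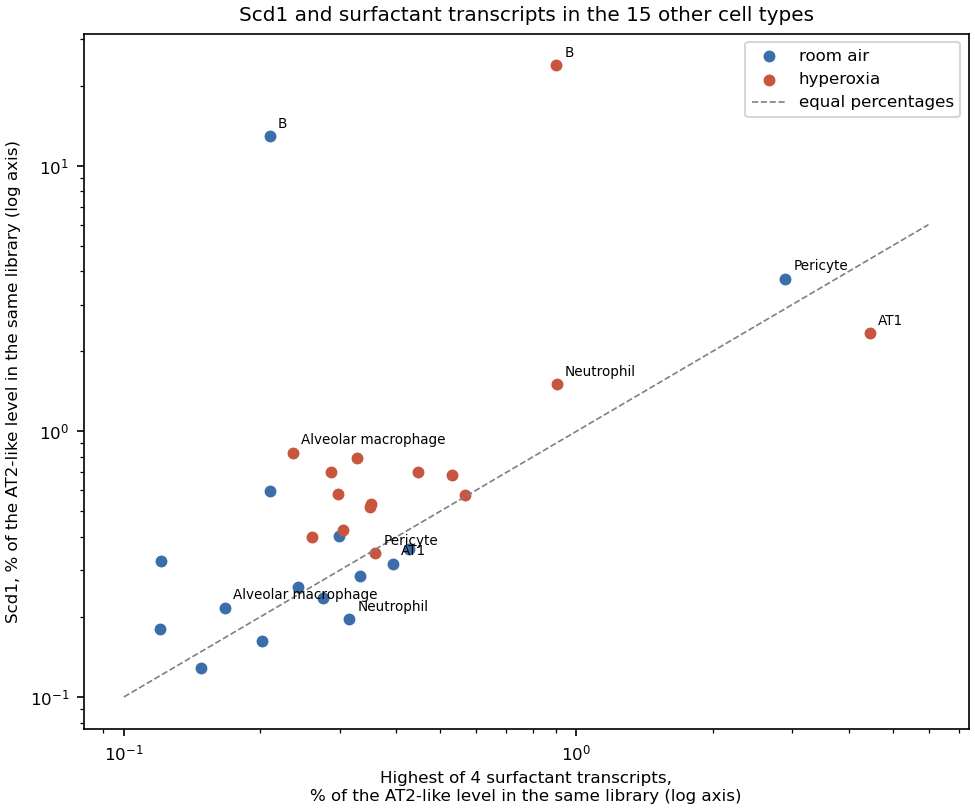
*Scd1* level (vertical, % of the AT2-like level of the same library, log axis) against the highest of 4 surfactant transcripts (horizontal, same scale, log axis) in the 15 other cell types, with 1 point for each type and library and a dashed line of equal percentages. B-like cells lie far above the line (12.9 and 23.9%), and room air pericyte-like cells (3.76%) and hyperoxia AT1-like cells (2.34%) lie near it.

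The first question was whether hyperoxia and room air differed in AT2-like cells, of which there were 193 in room air and 1064 in hyperoxia. In hyperoxia the fatty acid arm was read at a lower level, with all 8 measured genes below their room air value, whereas the sterol arm held 9 genes above and 10 below. A gene counted as measured at a mean of at least 10 CPM over both libraries, which left out *Hsd17b7* and *Elovl6* here. A gene was called higher or lower when its CPM ratio was past 1.5-fold and its interval left out 1. By this rule 1 of the 27 measured genes was called higher and 4 were called lower, beside 4.97% of 7487 measured genes called higher and 7.4% called lower. The median log2 ratio of hyperoxia to room air was -0.33 for the 8 fatty acid genes and -0.08 for the 19 sterol genes, beside 0.01 for the 7487 genes. With 1 library in each group no test was possible.

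*Insig1*, the sterol-sensing brake on both factors, was at 73.4 CPM (194 UMIs) in room air against 36.3 CPM (449 UMIs) in hyperoxia. Its log2 ratio was -1.01 (-1.26 to -0.76), and it was the only one of the 27 measured genes past 2-fold in these cells, beside 3.55% of all measured genes in either direction. The factors it holds back lay closer together in the 2 libraries. *Srebf2* was at 62.0 and 62.8 CPM, with a log2 ratio of 0.02 (-0.23 to 0.27). *Srebf1* was at 91.5 and 80.0 CPM, with a log2 ratio of -0.19 (-0.40 to 0.01), and neither was called.

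*Scd1* was called lower in hyperoxia, with a log2 ratio of -0.65 (-0.69 to -0.61). The difference also appeared in the middle of the cells. Among cells with at least 2000 UMIs, the median *Scd1* level per cell was 1359 CPM in 173 room air cells and 1103 CPM in 877 hyperoxia cells, and the upper quartile was 3025 and 1900 CPM. In room air the 5% of these cells with the most *Scd1* held 27.9% of its UMIs, and the highest cell held 388 UMIs. In hyperoxia the same share of cells held 20.6%, and the highest cell held 144. Each median is a description of the cells of 1 library.

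The remaining fatty acid genes of high level lay below room air without reaching 1.5-fold. *Elovl1*, an elongase of very long saturated chains, was at 433 CPM in room air against 294 CPM in hyperoxia, a log2 ratio of -0.56 (-0.66 to -0.46). *Scd2* was at 539 and 397 CPM, a log2 ratio of -0.44 (-0.53 to -0.36). *Acly*, which makes cytosolic acetyl-CoA from citrate, was at 156 and 112 CPM, a log2 ratio of -0.48 (-0.64 to -0.31). These 3 intervals stayed below 0, and so did that of *Fasn*, at -0.22 (-0.31 to -0.13). *Acaca*, encoding the carboxylase that makes malonyl-CoA, had a log2 ratio of -0.17 (-0.41 to 0.07), and *Elovl5* had -0.05 (-0.32 to 0.22).

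In the sterol arm of AT2-like cells, called genes lay on both sides. *Pmvk*, the phosphomevalonate kinase of the early pathway, was called higher, with 35.9 CPM (95 UMIs) in room air against 63.0 CPM (779 UMIs) in hyperoxia, which gives a log2 ratio of 0.81 (0.50 to 1.13). *Lss*, which closes the sterol ring to lanosterol, was called lower, with 20.05 CPM (53 UMIs) and 12.9 CPM (159 UMIs) and a log2 ratio of -0.64 (-1.10 to -0.16). *Dhcr7*, a reductase at the end of the pathway, was called lower as well, with 16.3 CPM (43 UMIs) and 9.70 CPM (120 UMIs) and a log2 ratio of -0.74 (-1.26 to -0.21). *Hmgcs1*, the sterol gene with the most UMIs here, was at 135 and 146 CPM, with a log2 ratio of 0.11 (-0.05 to 0.28). The 2 lower enzymes rest on 43 and 53 UMIs in room air, which sets the width of their intervals.

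Other genes of lipid handling in AT2-like cells were read from lists that did not enter the choice of the 29. The counts below stand beside 4.97% of 7487 measured genes called higher in these cells and 7.4% called lower. Of 10 other genes of sterol synthesis and of the control of the SREBP factors, 9 were measured, 0 were called higher and 1 was called lower, *Scap*, the escort of the factors (21.6 and 14.1 CPM). Of 21 other genes of fatty acid synthesis and activation, 13 were measured, 3 were called higher and 0 lower. These were *Me1*, malic enzyme, a source of NADPH for lipid synthesis (179 and 270 CPM), *Hsd17b12*, a reductase of the elongation cycle (36.3 and 55.6 CPM), and *Acsl1*, an acyl-CoA synthetase (8.70 and 15.4 CPM). Of 11 genes of sterol efflux, storage and lysosomal handling, 8 were measured and 1 was called lower, *Apoe*, a lipoprotein component (1023 and 603 CPM). Of 12 genes of fatty acid oxidation, all 10 measured genes lay above room air, with a median log2 ratio of 0.29, and 0 were called. Of 11 cell cycle genes, 6 were measured and 5 were called lower, with a median log2 ratio of -1.32, and cells with UMIs of at least 2 of them were 16.1% in room air and 14.9% in hyperoxia. Without those cells the fatty acid median was -0.39 and the sterol median -0.20. *Pmvk* was then still called higher and *Insig1* and *Scd1* lower, and *Fdft1* was called lower. These calls stand beside 6.92% of genes called higher and 7.15% lower without those cells. *Lss* at -0.54 and *Dhcr7* at -0.60 were no longer called, although their ratios stayed in the same direction. With no doublet removal, and with double the share removed, *Lss* was likewise uncalled and *Fdft1* called lower. At clustering resolutions of 0.5 and 2 *Lss* was called and *Fdft1* was not. Of 12 genes of the response to tissue dissociation, 0 were called in AT2-like cells.

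In alveolar macrophage-like cells (145 in room air and 302 in hyperoxia) the sterol arm was at close to the same level in both libraries. Of the 25 measured genes, 0 were called higher and 1 was called lower, beside 4.09% of 7313 measured genes called higher and 21.8% called lower. The median log2 ratio was -0.00 for the 18 measured sterol genes and -0.24 for the 7 measured fatty acid genes, beside -0.25 for the 7313 genes. The CPM scale itself was shifted in these cells. With TMM factors, which centre the bulk of the genes, the median of all genes moved up by 0.30 to 0.06, that of the sterol genes to 0.35, and the split of the members became 5 higher and 0 lower, beside 11.5% of genes called higher and 9.46% lower. The 5 were *Dhcr7*, *Msmo1*, *Nsdhl*, *Hsd17b7* and *Scd1*, named here after their values were seen.

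The called gene was again *Insig1*, with 86.4 CPM (173 UMIs) in room air against 47.5 CPM (257 UMIs) in hyperoxia. Its log2 ratio was -0.86 (-1.15 to -0.58) on the CPM scale and -0.56 with TMM factors, where it was no longer past 1.5-fold. At 2-fold, which 8.9% of genes passed in either direction, 0 members were called. *Srebf2* was at 38.5 and 28.8 CPM (-0.42, -0.82 to -0.00), and *Srebf1* at 22.5 and 19.0 CPM (-0.24, -0.76 to 0.30). The enzymes with the highest counts lay near 0 on the CPM scale. *Hmgcs1* was at 136 and 131 CPM (-0.06, -0.26 to 0.15), and *Idi1*, the isomerase of the isoprene units, at 65.5 and 68.4 CPM (0.06, -0.23 to 0.36). *Cyp51* was at 67.0 and 61.2 CPM (-0.13, -0.42 to 0.17), and *Acly* at 85.4 and 79.7 CPM (-0.10, -0.36 to 0.16).

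Other lists were read in alveolar macrophage-like cells too, where 4.09% of 7313 measured genes were called higher and 21.8% lower. These shares are on the CPM scale, which was shifted in these cells. All 11 cell cycle genes were measured and called lower in hyperoxia, with a median log2 ratio of -3.26, and cells with UMIs of at least 2 of these genes were 51.0% in room air and 45.0% in hyperoxia. Without those cells, on 71 room air and 166 hyperoxia cells, the sterol median was 0.07 and *Insig1* was no longer called, at -0.51. Of the 24 members measured there, *Msmo1* and *Sc5d* were called higher and *Elovl5* lower, beside 4.27 and 16.6% of genes. They are named here after their values were seen. Of the 9 measured genes of sterol synthesis and SREBP control, 1 was called higher, *Insig2*, the second INSIG (13.99 and 22.2 CPM), and 4 were called lower: *Ggps1*, *Lbr*, *Scap* and *Mbtps1*, of which *Scap* and *Mbtps1* encode the escort and a protease of the factors (23.5 and 14.1 CPM, and 25.5 and 15.2 CPM). Of the 11 genes of sterol efflux, storage and lysosomal handling, *Lipa*, the lysosomal acid lipase, was called higher (474 and 732 CPM), and *Abcg1*, a sterol exporter (987 and 642 CPM), *Mylip* (74.0 and 41.2 CPM) and *Apoe* (238 and 149 CPM) were called lower. Of 9 measured genes of the other fatty acid list, *Acsl4* was called higher (51.0 and 91.0 CPM). All 9 measured genes of fatty acid oxidation lay below room air, with a median log2 ratio of -0.45 beside -0.25 for all genes, and *Cpt1a* (134 and 86.3 CPM) and *Hadhb* (117 and 77.1 CPM) were among those called lower. Of the 12 dissociation genes, *Egr1* was called higher and *Jun*, *Hspa1a* and *Hspa1b* lower, with *Hspa1a* at 839 and 246 CPM, and their part in the results was not tested.

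**Figure D3:**
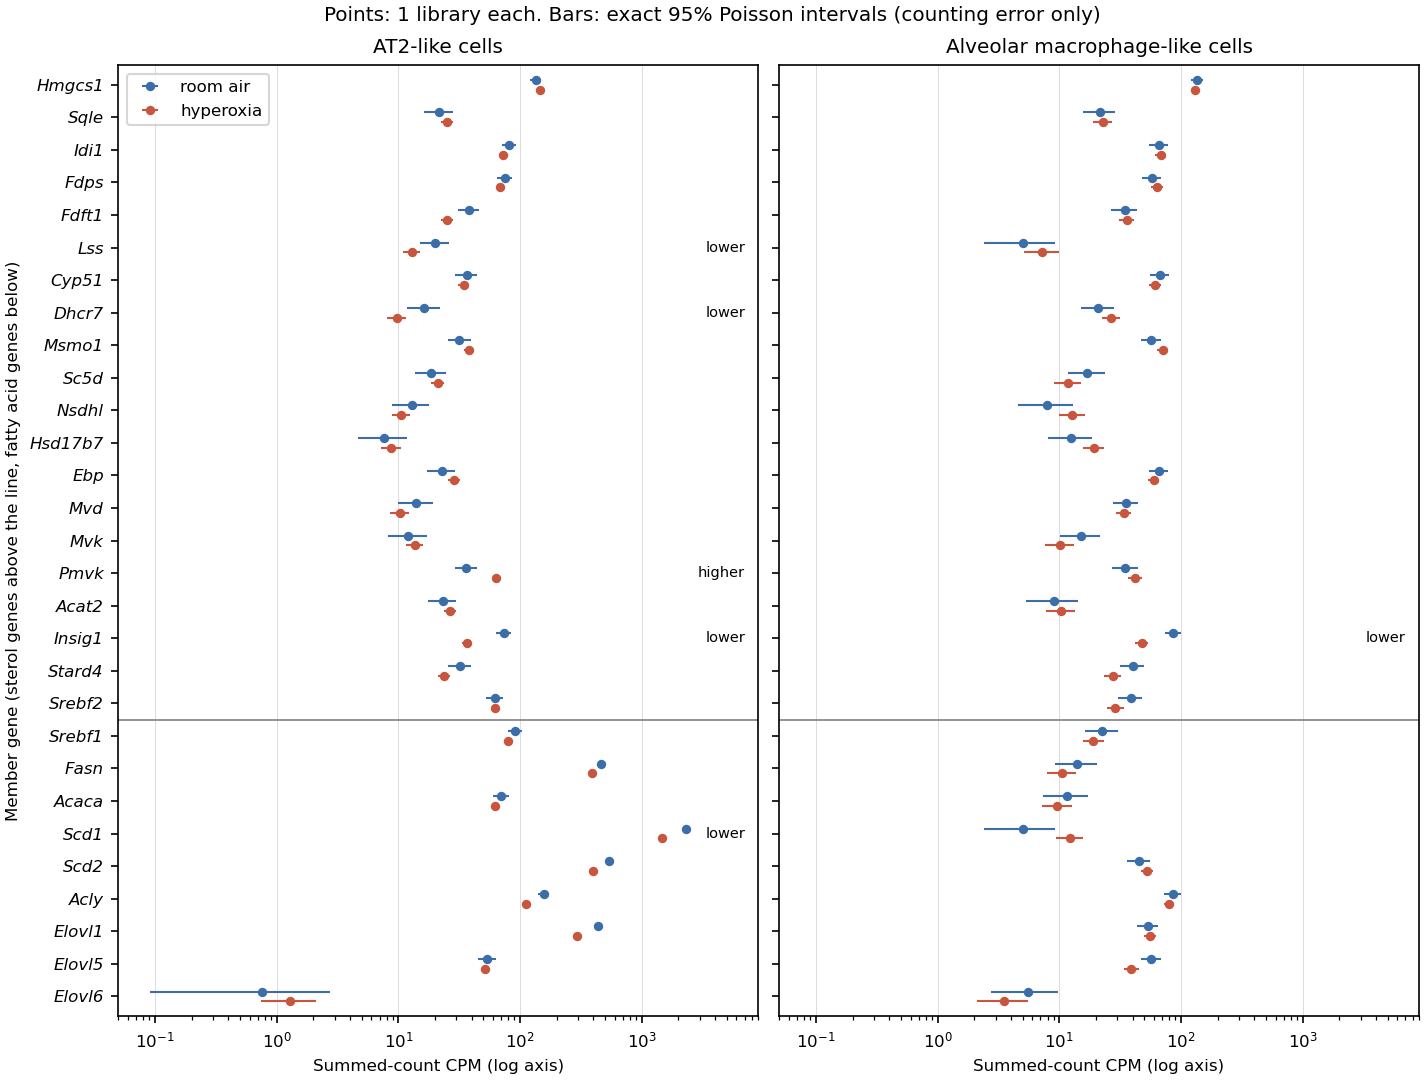
Level of each gene (rows) in AT2-like and alveolar macrophage-like cells, as summed-count CPM on a log axis, with room air in blue and hyperoxia in red. Points are 1 library each, bars are exact 95% Poisson intervals, and the words mark genes called higher or lower. *Scd1* is separated in AT2-like cells (2307 and 1467 CPM), and *Insig1* is lower in hyperoxia in both cell types (73.4 and 36.3 CPM, and 86.4 and 47.5 CPM).

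The sterol arm stood higher in hyperoxia in the capillary endothelium. In gCap-like cells (695 and 915) the 20 sterol genes together were at 479 CPM (461 to 498) in room air against 707 CPM (689 to 726) in hyperoxia, and in aCap-like cells (129 and 910) at 340 CPM (309 to 372) and 516 CPM (500 to 532). Of the 23 members measured in gCap-like cells, 8 were called higher and 1 lower, beside 6.62% of 8159 genes called higher and 9.82% lower. All 16 measured sterol genes lay above room air there, with a median log2 ratio of 0.59 beside -0.01 for the 8159 genes. In aCap-like cells 9 of 23 measured members were called higher and 0 lower, beside 6.79% of 8127 genes called higher and 8.32% lower. There 15 of 16 measured sterol genes lay above room air, with a median of 0.67 beside 0.01. The filter lets in genes of low room air level that are high in hyperoxia. With no filter, all 20 sterol genes lay above room air in gCap-like cells (median 0.66) and 17 of 20 in aCap-like cells (median 0.59). Of the members called higher, 5 of 8 in gCap-like and 6 of 9 in aCap-like cells were at 10 CPM or more in room air. The list of other genes of sterol synthesis and SREBP control had medians of 0.15 in gCap-like and 0.30 in aCap-like cells over 8 measured genes, and 0 were called lower. *Scap* was at 16.5 and 25.7 CPM in aCap-like cells and was called higher. The members called higher belonged to the sterol arm in both cell types, and 7 of them were called in both: *Sqle*, *Idi1*, *Fdps*, *Fdft1*, *Cyp51*, *Insig1* and *Srebf2*.

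*Sqle*, encoding squalene epoxidase, which adds the oxygen to squalene, had the largest ratio of the called members, from a room air level under 10 CPM in both types. It was at 6.87 CPM (37 UMIs) in room air against 22.2 CPM (173 UMIs) in hyperoxia in gCap-like cells, a log2 ratio of 1.69 (1.17 to 2.25). In aCap-like cells it was at 4.498 CPM (6 UMIs) and 16.2 CPM (127 UMIs), a log2 ratio of 1.84 (0.68 to 3.32). *Cyp51* was at 9.84 and 26.2 CPM in gCap-like cells (1.41, 0.97 to 1.88) and at 8.25 and 19.3 CPM in aCap-like cells (1.23, 0.35 to 2.26). *Idi1* was at 23.2 and 53.6 CPM (1.21, 0.92 to 1.51) and at 18.0 and 42.1 CPM (1.23, 0.63 to 1.89). These 3 genes were past 2-fold in both capillary types, beside 4.36% of genes past 2-fold in either direction in gCap-like and 5.16% in aCap-like cells. Past 2-fold in 1 capillary type were *Hsd17b7*, a ketosteroid reductase, in gCap-like cells (5.38 and 16.2 CPM, 1.59, 0.99 to 2.22), and *Fdft1*, squalene synthase, in aCap-like cells (7.50 and 15.4 CPM, 1.04, 0.11 to 2.13).

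Among the regulators, *Insig1*, which was lower in AT2-like and alveolar macrophage-like cells, was called higher in gCap-like cells, at 14.7 and 28.9 CPM (0.98, 0.60 to 1.37), and in aCap-like cells, at 12.0 and 20.9 CPM (0.80, 0.06 to 1.64). *Srebf2* was at 23.9 and 36.4 CPM (0.61, 0.30 to 0.92) and at 16.5 and 27.6 CPM (0.74, 0.11 to 1.45). *Srebf1* was not called in either, with log2 ratios of 0.07 (-0.31 to 0.46) and 0.05 (-0.48 to 0.63). The fatty acid genes of these cells had medians of 0.12 and 0.07, and *Scd1* was called lower in gCap-like cells, from 13.7 CPM (74 UMIs) to 7.83 CPM (61 UMIs). *Hmgcs1* was at 60.9 and 83.9 CPM in gCap-like cells (0.46, 0.27 to 0.66), short of 1.5-fold, and was called higher in aCap-like cells, at 51.0 and 95.8 CPM (0.91, 0.55 to 1.29).

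Different clusters held most gCap-like cells in the 2 libraries. One cluster had 674 room air and 298 hyperoxia cells, and another had 21 and 617. Within the first cluster alone, the sterol median was 0.47 and 6 of 22 measured members were called higher, beside 6.19% of genes. Among them were *Sqle*, *Idi1*, *Cyp51*, *Insig1* and *Srebf2*. There *Scd1*, at -0.51, was lower without being called. Of 11 cell cycle genes, 4 were measured in gCap-like cells and 3 were called higher, with a median log2 ratio of 0.90, beside 6.62% of genes called higher. Cells with UMIs of at least 2 cell cycle genes were 18.4% of gCap-like cells in room air and 27.2% in hyperoxia. Without them the sterol median was 0.56 and 8 of 23 measured members were called higher, beside 7.01% of genes. In aCap-like cells these shares were 13.2 and 10.8%. Without those cells the aCap median was 0.58, on 112 room air cells. There 3 members rather than 9 were called higher, *Hmgcs1*, *Sqle* and *Idi1*, beside 6.48% of genes. Of the 12 dissociation genes, 1 was called higher in gCap-like cells (median 0.18) and 2 in aCap-like cells (median 0.25), with 0 lower. Their part in the members' ratios was not tested. Surfactant transcripts in either capillary type were at most 0.352% of their AT2-like level.

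AT1-like cells were few, with 53 in room air and 119 in hyperoxia. There 6 of 25 measured members were called higher and 0 lower, beside 4.4% of 7908 genes called higher and 5.59% lower. The median log2 ratio of the 17 measured sterol genes was 0.81 beside -0.04 for the 7908 genes, with 11 above room air and 6 below. Of the 6 called members, 3 were under 10 CPM in room air and so reached the filter through their hyperoxia level. With no filter, 14 of 20 sterol genes lay above room air and 6 below. *Hmgcs1* had the most UMIs of the called genes, with 61.0 CPM (25 UMIs) and 127 CPM (111 UMIs) and a log2 ratio of 1.06 (0.42 to 1.75). *Sqle* (4 and 26 UMIs), *Fdft1* (3 and 26), *Hsd17b7* (5 and 35), *Srebf2* (11 and 46) and *Scd1* (3 and 30) were the others, and 5 of the 6, all but *Srebf2*, were past 2-fold, beside 5.46% of genes in either direction. The sterol median depended on how the cells were set apart. It was 0.09 without removing doublets, 0.05 with double the share removed, 0.03 at a clustering resolution of 0.5 and 0.03 with each library clustered on its own. *Srebf2* was at 0.25 to 0.41 under these 4 settings, against 0.97, and *Sqle* was at 0.14 with means over single cells. For *Fdft1* and *Scd1* the direction turned under 1 of these settings, to -0.019 without doublet removal and to -2.84 with double the share removed. *Scd1* in AT1-like cells moved with surfactant transcripts, which were at up to 0.392% of the AT2-like level in room air and 4.46% in hyperoxia, and their part in its ratio was not tested. Of the 12 dissociation genes, 3 were called higher in AT1-like cells, *Fos* among them (219.5 and 396 CPM), and 5 lower, *Hspa1a* among them (166 and 41.2 CPM), and their part in the members' ratios was not tested. *Scd2*, the gene of high level in these cells, was at 1539 and 2010 CPM, with a log2 ratio of 0.38 (0.25 to 0.52), and was not called.

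**Figure D4:**
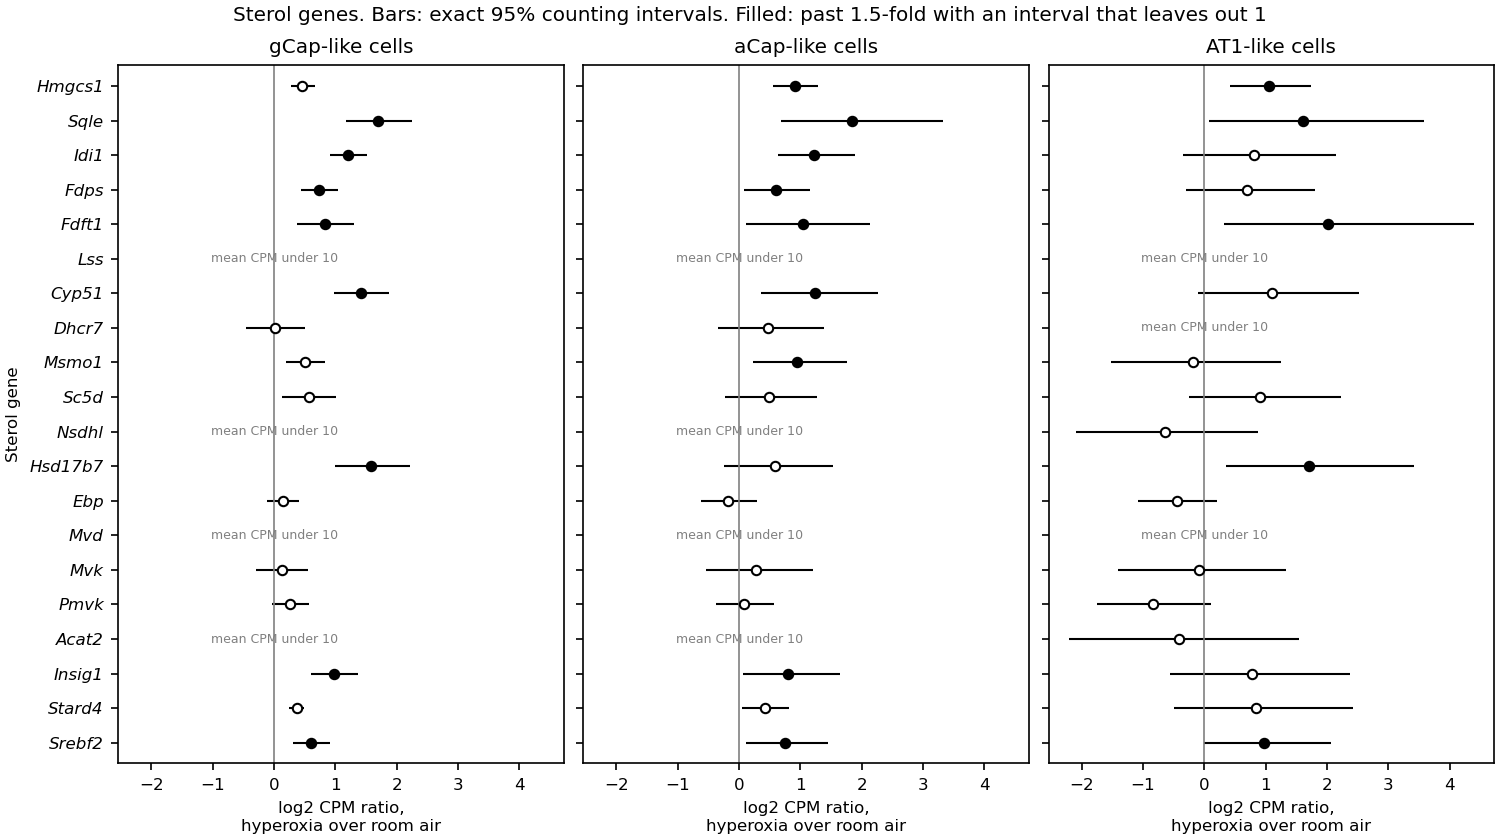
Log2 CPM ratio of hyperoxia to room air for the 20 sterol genes in gCap-like, aCap-like and AT1-like cells. Bars are exact 95% counting intervals and filled points are past 1.5-fold with an interval that leaves out a ratio of 1. *Sqle* lies at 1.69 in gCap-like and 1.84 in aCap-like cells, the intervals of AT1-like cells are the widest, and genes under a mean of 10 CPM carry no point.

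In the other 11 types between 0 and 4 members were called, and the share of all measured genes is given beside each count. Members between 1.5-fold and 2-fold are named after their values were seen. Genes of the dissociation response moved as well in several of these types. Of 12 such genes, 9 were called higher in alveolar fibroblast-like cells (median 0.78), 8 in pericyte-like (0.64), 8 in ILC2-like (0.78), 5 in nonclassical monocyte-like, 4 in B-like and 4 in myofibroblast-like cells, with 0 lower in these 6 types, and their part in the members' ratios was not tested. In interstitial macrophage-like cells 1 member was higher and 1 lower of 17, beside 4.81 and 9.01% of genes. *Scd2* was at 11.3 and 28.9 CPM (1.36, 0.33 to 2.56), beside 7% of genes past 2-fold in either direction, and *Insig1* at 58.9 and 39.1 CPM (-0.59, -1.14 to -0.03). In classical monocyte-like cells 0 were higher and 1, *Elovl1* (73.2 and 46.6 CPM), was lower of 15, beside 6.84 and 4.46%, and 0 were past 2-fold, beside 4.51%.

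In nonclassical monocyte-like cells 2 members were higher and 1 lower of 13, beside 5.85 and 4.06% of genes. *Idi1* (5 and 8 UMIs) and *Srebf2* (15 and 15 UMIs, in cells with 1063470 and 473955 UMIs in all) were past 2-fold, beside 5.29%, and *Acly* was lower at 85.6 and 52.7 CPM. In dendritic-like cells 1 was higher and 1 lower of 19, beside 5.9 and 5.89%. *Stard4* was at 33.2 and 12.5 CPM there (-1.41, -2.25 to -0.60), past 2-fold beside 5.87%, and *Pmvk* at 37.4 and 62.4 CPM (0.74, 0.19 to 1.32). In neutrophil-like cells 1 was higher and 1 lower of 12, beside 4.42 and 8.46%, and both were past 2-fold, beside 7.64%. These were *Scd1*, with 2 and 29 UMIs, and *Ebp*, at 49.9 and 19.1 CPM (-1.39, -2.27 to -0.49). The surfactant transcripts of neutrophil-like cells were at most 0.314% of the AT2-like level in room air and 0.904% in hyperoxia.

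In the lymphoid types *Fdps*, farnesyl diphosphate synthase, was called lower in each of the 3 compared. In B-like cells it was at 24.4 and 15.6 CPM (-0.64, -1.17 to -0.11), in T-like cells at 36.5 and 23.3 CPM (-0.65, -1.09 to -0.20), and in ILC2-like cells it had 14 and 19 UMIs (-1.15, -2.22 to -0.04). B-like cells had 1 higher and 2 lower members of 18, beside 5.93 and 2.84% of genes, with *Scd2* higher at 47.9 and 84.7 CPM (0.82, 0.51 to 1.14) and *Cyp51* lower at 23.1 and 12.8 CPM. None of these was past 2-fold, beside 2.26%. T-like cells had 1 higher and 1 lower of 21, beside 3.57 and 3.64%. The higher one was *Elovl6*, at 12.7 CPM (23 UMIs) and 31.2 CPM (173 UMIs), with a log2 ratio of 1.30 (0.66 to 1.99), past 2-fold beside 1.52%. ILC2-like cells had 1 higher and 2 lower of 22, beside 5.15 and 3.86%, all past 2-fold beside 5.39%. The higher one was *Srebf1* (2 and 40 UMIs, 2.73, 0.78 to 5.82) and the other lower one *Hsd17b7* (7 and 6 UMIs).

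Among the stromal types, alveolar fibroblast-like cells had 3 higher members and 1 lower of 17, beside 8.23 and 7.03% of genes, and 0 past 2-fold, beside 4.31%. The higher ones all belonged to the fatty acid arm. *Srebf1* was at 14.8 and 24.4 CPM (0.72, 0.26 to 1.21), *Fasn* at 33.2 and 53.2 CPM (0.68) and *Scd2* at 88.1 and 133 CPM (0.60, 0.41 to 0.79). The lower one was *Insig1*, at 42.1 and 21.8 CPM (-0.95, -1.26 to -0.63). In myofibroblast-like cells 0 of 23 were higher and 0 lower, beside 5.33 and 5.92%, and 0 were past 2-fold, beside 3.23%.

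In pericyte-like cells 1 member was higher and 3 lower of 22, beside 6.8 and 9.25% of genes, and 3 of them were past 2-fold, beside 6.31%. *Scd1* was lower, with 86.7 CPM (134 UMIs) and 5.09 CPM (12 UMIs), *Insig1* was lower at 23.9 and 11.9 CPM (-1.01, -1.77 to -0.26), and *Acly* at 109 and 61.1 CPM (-0.84, -1.17 to -0.51). In room air 3 of the 150 cells held 119 of the 134 *Scd1* UMIs and 7369 of the 7736 surfactant UMIs. Without these 3 cells *Scd1* was at 10.0 CPM in room air, so that the size of the ratio rested on them. Hyperoxia was at 3.44 CPM without its own 3 highest cells. These levels rest on few UMIs, and whether the call stands without those cells was not tested. *Elovl6* was higher in these cells, at 3.88 CPM (6 UMIs) and 16.1 CPM (38 UMIs), a log2 ratio of 2.05 (0.80 to 3.59).

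**Figure D5:**
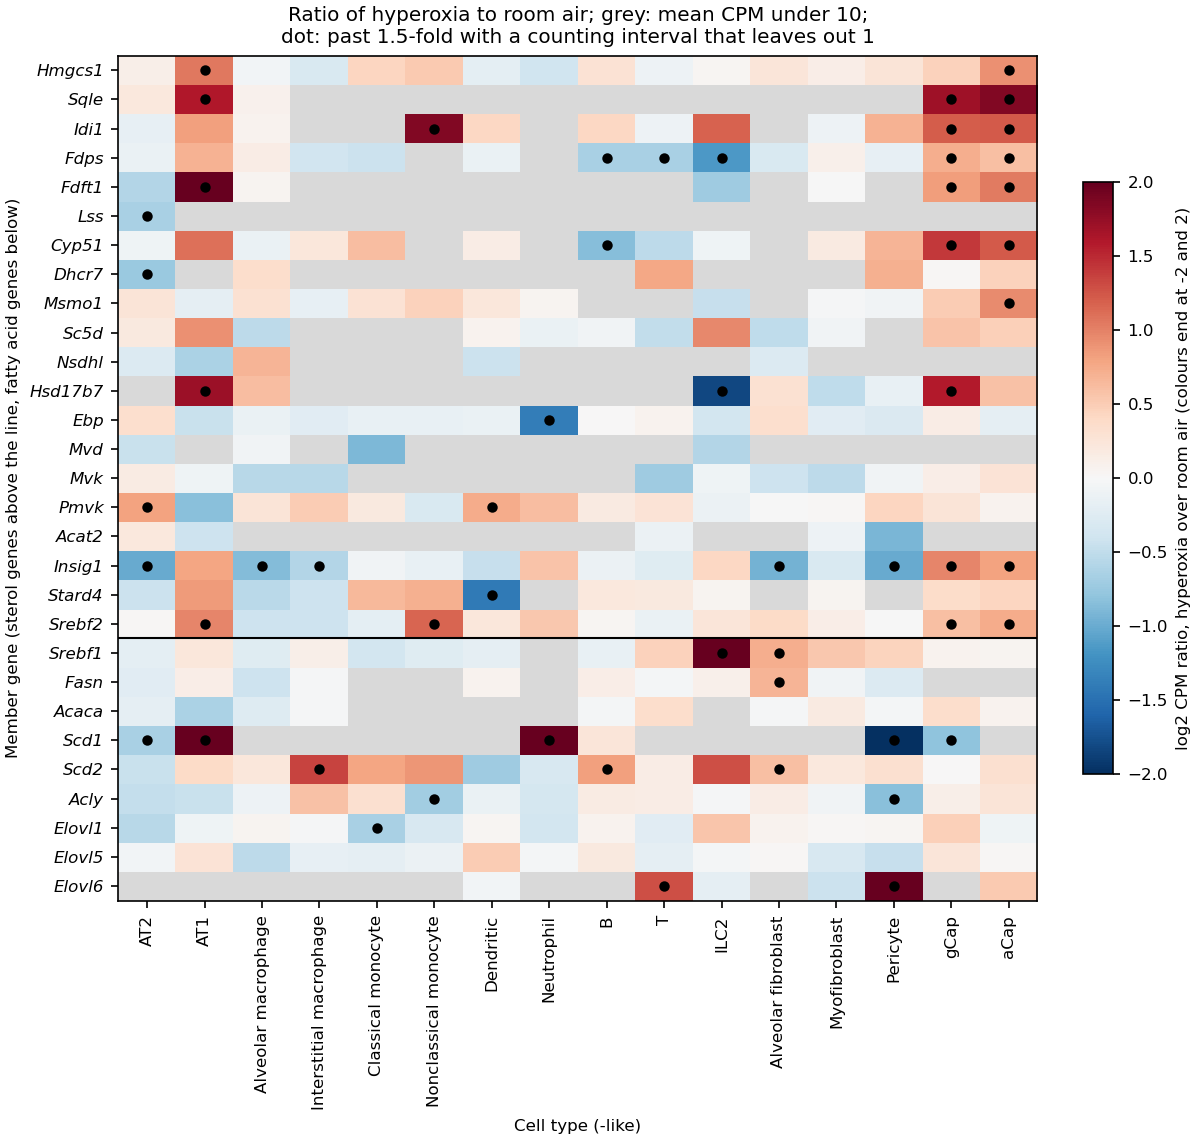
Log2 CPM ratio of hyperoxia to room air for each gene (rows) in each of the 16 cell types (columns), with red for higher and blue for lower in hyperoxia, grey for a mean under 10 CPM and a dot for a ratio past 1.5-fold with an interval that leaves out 1. Dots in the gCap and aCap columns sit on sterol genes apart from *Scd1* in gCap-like cells, and *Insig1* is blue with a dot in 5 types and red with a dot in 2.

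Across the 16 types, *Insig1* was called lower in 5 and higher in 2, and *Srebf2* was called higher in 4 and lower in 0. Of 3820 genes measured in all 16 types, 2.93% were called lower in 5 or more and 3.74% higher in 4 or more. *Scd1* was called lower in 3 and higher in 2, and *Fdps* was called higher in 2 and lower in 3. *Elovl5*, *Sc5d*, *Mvk*, *Acaca*, *Mvd*, *Nsdhl* and *Acat2* were called in 0 types, of 16, 12, 11, 11, 4, 5 and 5 types in which they were measured. *Acat2*, the cytosolic thiolase at the entry to the pathway, has a closely similar neighbouring copy in the mouse genome, and its counts are uncertain for that reason. The remaining sterol genes were called in 1 to 3 types each. *Dhcr7* was measured in 6 types and called in AT2-like cells alone, and *Lss* was measured in those cells alone.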

How the data were processed

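Single-cell libraries of pooled neonatal mouse lung, 1 from room air and 1 from hyperoxia, were read as deposited raw UMI counts for each gene and barcode, which the authors made with Cell Ranger on mm10. The submitters' processing notes name version 2.1.1, the extract protocol 6.1.1 and the file headers 3.1.0, and the kit is given as v2 in the labels and v3 in the methods, so the version cannot be settled. The values are not normalized.

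The 29 genes and the other gene lists were chosen with earlier results of these data known. Barcodes with under 500 genes (345 in room air and 1026 in hyperoxia) or over 20% mitochondrial UMIs (80 and 486) were left out. Doublets were ranked against simulated ones, 2 per cell with 30 neighbours, and 0.8% per 1000 barcodes were removed (129 and 1239), which left 3680 and 10472 cells with medians of 8063.5 and 7221 UMIs. Cells were clustered on 2000 variable genes, without the 29 members, mitochondrial and sex-linked genes, with 30 components, 20 neighbours and Leiden resolution 1, into 36 clusters. A cluster was named by its best marker score if at least 3 markers were raised (in 5% of cells and by 0.5 on the log2 scale), at least 1 was among its 10 leading genes and the next score was under 85% of the best. The last 2 conditions were added after the clusters were seen. This gave 25 names, and 154 and 445 cells stayed unnamed.

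Counts were summed by cell type and library and divided by all UMIs of those cells. Levels carry exact Poisson intervals and ratios exact conditional binomial intervals at 95%, for counting error only. With 1 library in each group no p-value was computed. The ratio step was tested on simulated data. All 29 genes could be named. *Srebf1*, *Srebf2*, *Insig1*, the 5 members of highest mean CPM and members past 1.5-fold were described in AT2-like and alveolar macrophage-like cells, members past 2-fold in other types, and genes of other lists past 1.5-fold in those first 2 types. Capillary and AT1-like cells were described further after their values were seen. Sequences were RefSeq promoters on GRCm38.p6. Software was Python 3.11.15, numpy 2.4.6, scipy 1.17.1, pandas 2.3.3, scikit-learn 1.9.0, igraph 0.11.9, leidenalg 0.10.2 and matplotlib 3.10.9. Alternatives changed doublet removal, cell filters, clustering, scaling, the filter on low values, the fold and the cells included.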

Additional observations from a re-analysis of the deposited data

Results flagged for a closer look

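For 5 genes the hyperoxia to room air ratio was past 1.5-fold in opposite directions in different cell types, with intervals that left out 1. These were 5 of 28 members measured in at least 2 types, beside 12.98% of 11133 genes. The difference between types was not tested, since each type has 1 library in each group. Values are log2 ratios of CPM.

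*Insig1* was higher in gCap-like (0.98) and aCap-like cells (0.80) and lower in AT2-like (-1.01), alveolar macrophage-like (-0.86), interstitial macrophage-like (-0.59), alveolar fibroblast-like (-0.95) and pericyte-like cells (-1.01). *Fdps* was higher in gCap-like (0.73) and aCap-like cells (0.60) and lower in B-like (-0.64), T-like (-0.65) and ILC2-like cells (-1.15). *Cyp51* was higher in gCap-like (1.41) and aCap-like cells (1.23) and lower in B-like cells (-0.85). *Hsd17b7* was higher in AT1-like (1.71) and gCap-like cells (1.59) and lower in ILC2-like cells (-1.81), where it had 7 and 6 UMIs. *Scd1* was higher in AT1-like (2.23) and neutrophil-like cells (2.28) and lower in AT2-like (-0.65), gCap-like (-0.81) and pericyte-like cells (-4.09). Its AT1-like value turned with doublet removal. The size of its pericyte-like value rested on 3 room air cells, and its call there was not tested without them. Its room air level was under 10 CPM in AT1-like cells (7.32 CPM against 34.3 CPM in hyperoxia) and in neutrophil-like cells (4.54 and 22.1 CPM). The highest surfactant share rose in these 2 types as well, from 0.392 to 4.46% and from 0.314 to 0.904%, and its part was not tested.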

How the results depend on the processing

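No paired analysis was possible because each group had 1 library and the labels give no replicate numbers. Leaving out a library would end the comparison. Intervals cover counting error, and genes of few UMIs in the smaller room air library have the widest ones.

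The median log2 ratios ranged from -0.40 to -0.22 for fatty acid genes and -0.20 to 0.03 for sterol genes in AT2-like cells, from -0.25 to 0.13 and -0.12 to 0.35 in alveolar macrophage-like cells, and for sterol genes from 0.41 to 0.67 in gCap-like, 0.58 to 0.73 in aCap-like and 0.03 to 0.96 in AT1-like cells. The alternatives for the last 3 types were chosen after seeing the data, as were the largest gCap cluster alone and AT2-like cells of at least 2000 UMIs.

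The counts of called members moved more, and the cause was not tested except where a stricter rule leaves fewer genes to call. Brackets give the shares of all measured genes called by the same rule under that setting. In AT2-like cells the 1 higher and 4 lower genes became 2 and 7 with means over single cells (11.9 and 9.46%). They became 0 and 2 at a mean of at least 50 CPM (4.71 and 4.92%), and 0 and 1 at 2-fold (1.24 and 2.31%). In alveolar macrophage-like cells the 0 higher and 1 lower became 5 and 0 with TMM factors (11.5 and 9.46%). With means over single cells they became 1 and 2 (5.91 and 25.2%). The higher count became 1 without doublet removal (5.66%) and 2 without mitochondrial, ribosomal and haemoglobin genes (4.75%). It was 1 with no filter on low values (2.92%). It became 2 without cells with UMIs of at least 2 cell cycle genes (4.27%). The lower count became 2 with separate clustering (22.6%) and 0 at 2-fold (7.52%). The 8 higher genes in gCap-like cells became 0 of 6 measured at 50 CPM (6.46%) and 4 at 2-fold (1.92%). The 9 in aCap-like cells became 5 with double the share of doublets removed (7.03%). They became 3 without cells with UMIs of at least 2 cell cycle genes (6.48%), 1 of 6 measured at 50 CPM (6.25%) and 4 at 2-fold (2.12%). The 6 in AT1-like cells became 3 without cells with UMIs of at least 2 cell cycle genes (4.1%). At 50 CPM they became 1 of 6 measured (5.67%). In AT1-like cells *Fdft1* turned to -0.019 without doublet removal and *Scd1* to -2.84 with double the share removed.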
